A study of Mus musculus with 17 samples.

Results

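The transcription factors that direct the blood lineages were described here by the DNA methylation of their genes in mouse whole blood. A CCCGGG site was a member when it had at least 50 reads in at least 13 of 17 mice and lay between 1000 bp upstream of the transcription start and the end of 1 of 43 listed genes (GENCODE M1 on mm9). The rule gave 95 of the 18884 sites that passed the same depth filter, in 28 of the 43 genes. Of 424 CCCGGG sites in these genes, the measured ones were 26 in 8 of 12 stem cell factors, 8 in 2 of 7 myeloid factors, 9 in 3 of 4 erythroid factors and 52 in 15 of 20 lymphoid factors. The 15 other listed genes had no measured site. They include Tal1, Lmo2, Spi1, Irf8, Gfi1, Gfi1b, Id2 and Lef1, and they are not described. DREAM, a digital analysis of methylation by restriction enzymes, gave the share of methylated molecules at each CCCGGG. All mice were C57BL/6, an inbred laboratory strain. The AL-young group held 5 mice of 4 months fed ad libitum (AL), 2 females and 3 males. The AL-old group held 7 mice of 29 to 33 months on the same diet, 5 females and 2 males. The CR-old group held 5 mice of 32 to 38 months on caloric restriction (CR), 2 females and 3 males, so old groups differed in age range and sex as well as diet. Each mouse gave 1 whole blood library, and the numbers below are the mouse numbers of the labels.

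Blood cells arise from stem cells in the marrow, and each branch is set up by transcription factors that switch on its own genes and oppose those of other branches. Factors such as Gata2, Mecom, Meis1, Erg and Myb act in stem and progenitor cells, Cebpa and Cebpb in granulocytes and monocytes, Klf1, Nfe2 and Cbfa2t3 in erythroid and megakaryocytic cells, and Pax5, Ebf1, Tcf3, Tcf7, Gata3 and Bcl11b in B or T lymphocytes. CpG islands, stretches of DNA rich in CpG that cover many gene starts, are mostly unmethylated in normal cells, and DNA between islands is mostly methylated. Whole blood is a mixture of lymphocytes, granulocytes and monocytes, with nucleated cells as the source of DNA, so a shift in cell proportions and a change within cells cannot be told apart in these values.

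The sequences around the 10 sites that passed the test in a comparison of mouse groups are shown first, because the results turn on them. Sites are named by gene and by their distance in bp from the nearest annotated transcript start, with a minus sign for upstream. That start can lie within the gene, so a minus sign alone does not place a site outside the gene. Each line gives the gene strand 5′ to 3′ on mm9 (NCBIM37), and the capitals mark the CCCGGG that the enzymes cut. The 4 Bcl11b sites lay on chromosome 12, minus strand, in a CpG island at the gene start. 2 of these were upstream (-375, chr12:109242128-109242247, and -252, chr12:109242005-109242124), Bcl11b +172 lay in an untranslated exon (chr12:109241438-109241467) and Bcl11b +381 in an intron (chr12:109241184-109241303). Mecom +956 was intronic in a CpG island (chr3:30407394-30407513, minus strand). Cebpb -488 was upstream and outside islands (chr2:167513868-167513987, plus strand), inside the overlapping gene Tmem189. Cbfa2t3 +278 was intronic in an island (chr8:125201635-125201754, minus strand) and overlapped Gm20388. Tcf3 +2617 (chr10:79881929-79882048), Tcf3 +3541 (chr10:79890130-79890249) and Tcf7 +5534 (chr11:52090153-52090272), all on the minus strand, were intronic and outside islands, and Tcf7 +5534 also overlapped A630014C17Rik.
Bcl11b -375: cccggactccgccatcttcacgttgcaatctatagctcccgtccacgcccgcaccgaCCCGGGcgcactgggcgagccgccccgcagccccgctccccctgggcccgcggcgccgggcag
Bcl11b -252: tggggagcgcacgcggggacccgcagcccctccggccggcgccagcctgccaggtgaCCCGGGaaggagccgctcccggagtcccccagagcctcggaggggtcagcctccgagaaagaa
Bcl11b +172: cagaggcaccaaCCCGGGcggaggaggagg
Bcl11b +381: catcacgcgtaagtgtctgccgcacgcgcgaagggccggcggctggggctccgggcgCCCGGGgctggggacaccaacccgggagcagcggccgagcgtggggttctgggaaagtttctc
Mecom +956: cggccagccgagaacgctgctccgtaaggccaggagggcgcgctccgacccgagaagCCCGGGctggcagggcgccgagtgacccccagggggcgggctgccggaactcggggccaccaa
Cebpb -488: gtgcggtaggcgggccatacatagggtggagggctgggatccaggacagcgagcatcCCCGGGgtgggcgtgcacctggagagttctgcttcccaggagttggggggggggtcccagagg
Cbfa2t3 +278: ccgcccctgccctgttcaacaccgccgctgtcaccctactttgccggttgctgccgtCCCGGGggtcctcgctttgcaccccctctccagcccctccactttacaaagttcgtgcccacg
Tcf3 +2617: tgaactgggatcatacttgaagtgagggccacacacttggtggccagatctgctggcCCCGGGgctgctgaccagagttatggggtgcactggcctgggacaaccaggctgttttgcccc
Tcf3 +3541: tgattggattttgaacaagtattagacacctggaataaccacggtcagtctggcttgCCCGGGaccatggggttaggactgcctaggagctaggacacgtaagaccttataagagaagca
Tcf7 +5534: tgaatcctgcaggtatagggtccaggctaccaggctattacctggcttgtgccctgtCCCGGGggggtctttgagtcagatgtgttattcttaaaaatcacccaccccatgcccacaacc

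The 300 bp around these sites held 37 CpG at Bcl11b +381, 33 at Bcl11b -375, 31 at Bcl11b -252, 17 at Bcl11b +172 and 35 at Mecom +956. In contrast they held 11 at Cebpb -488, 8 at Tcf3 +3541, 4 at Tcf7 +5534 and 2 at Tcf3 +2617. Over all 95 member sites 67.4% lay in CpG islands, beside 66.6% of all tested sites, and 44.2% lay in promoters, beside 51.9%. Bcl11b +381 and +172 were 209 bp apart and Bcl11b -252 and -375 were 123 bp apart. Since 92 of the 95 sites had another member within 500 bp, neighbouring sites can be the ends of 1 fragment and do not count as separate evidence.

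Sequencing gave 6.93 to 51.6 M reads (megareads) on sites per AL-young mouse, 6.41 to 14.9 M per AL-old mouse and 7.23 to 14.8 M per CR-old mouse. The median member site had 321 reads, at which 3 reads, taken as the limit of detection, are 0.935%. Wilson 95% intervals below cover counting error only, since the reads carry no molecular identifiers. The deposited adjusted methylation multiplied the odds of each mouse by a constant from spiked standards, 0.872 to 1.13 in 11 mice but 1.403 to 3.96 in AL-old 08, 09, 10, 13 and 14 and 1.80 in CR-old 06. These 6 are called high-correction mice below. All 5 AL-old females were among them and no AL-young mouse was, so sex, correction and age cannot be fully told apart in AL-old mice. Values below are raw percent methylation, the same reads that were tested, and means leave out mice with under 50 reads at a site. As a check of the tissue, marker genes of blood cell types gave 28 measured sites in 7 of 60 listed genes, with none for B or NK cells. Mean methylation over the 6 T cell marker sites (Cd247 and Cd3g) ranged from 30.3 to 37.6% in AL-young, 6.46 to 46.9% in AL-old and 15.9 to 40.3% in CR-old mice. Over the 7 myeloid marker sites (Csf1r, Itgam and Prtn3) it ranged from 52.4 to 57.2%, 32.4 to 57.3% and 31.8 to 45.8%. Of all 28 marker sites, 2 fell with age (Cd3g, 87.0 to 50.9%, and Itgam, 92.3 to 51.7%, edgeR adjusted p = 0.0131 and 0.000194), and the part of these cell types in the results below was not tested.

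Many sites of the lineage factors had very low methylation in all groups. All 3 group means were under 1% at 42 of the 95 sites (44.2%), close to the 43.5% of all tested sites. These 42 held all measured sites of Myb, Etv6, Hhex, Ikzf1, Bcl6, Bcl11a, Prdm1, Klf1 and Nfatc1, genes that act in different branches. In AL-young mice 64 sites had a mean under 5%, 19 a mean of 5 to 90% and 12 a mean over 90%. The highly methylated sites lay in the bodies of Mecom, Erg, Tcf3, Bcl11b and Stat5a. Hlf +290, in the promoter island of a factor of stem cells, had 88.1% ± 2.89 (SD, n = 5) in AL-young, 91.8% ± 4.94 (n = 7) in AL-old and 92.5% ± 2.01 (n = 5) in CR-old mice.

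**Figure D1:**
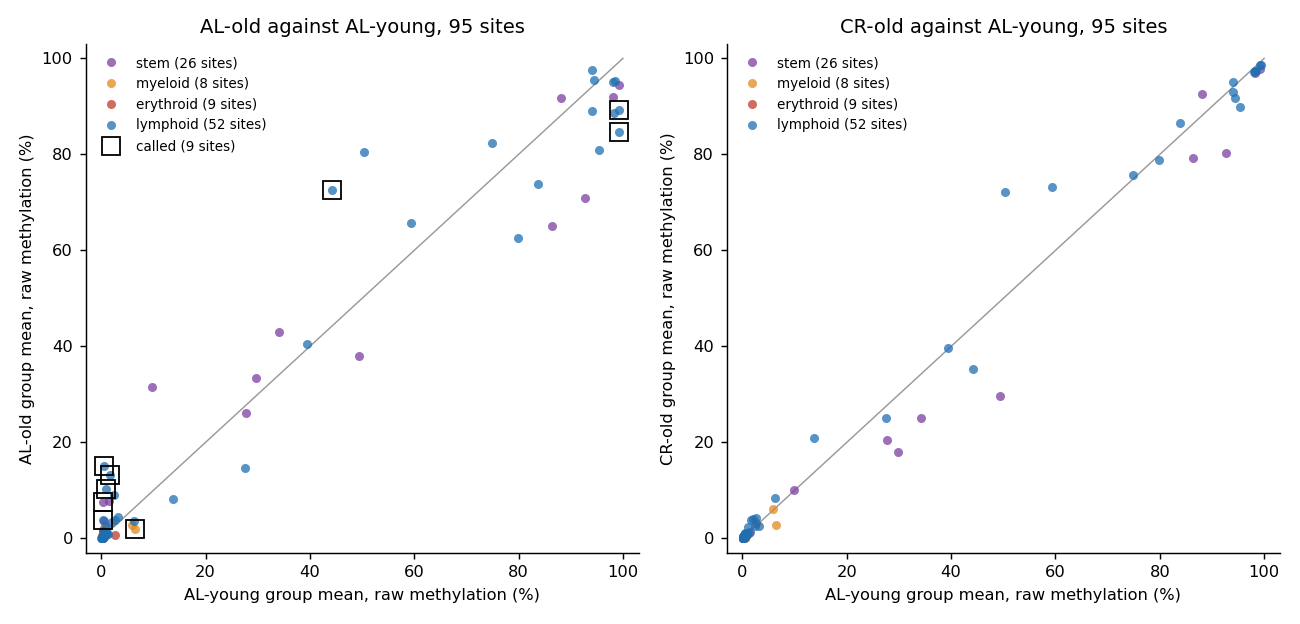
Group mean raw methylation (%) of AL-old (left) and of CR-old mice (right) against that of AL-young mice at the 95 member sites, coloured by lineage list, where the line marks equal means and squares the 9 sites changed with age. Many points lie near 0% on both axes, and the AL-old means lie farther from the line than the CR-old means at sites such as Tcf7 +5534 (72.6 against 35.3%, AL-young 44.3%).

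With age, 6 of the 95 sites (6.32%) rose and 3 (3.16%) fell in AL-old against AL-young mice, where the background over all 18884 sites was 3.95% higher and 6.0% lower (9.94% in either direction). A change here means an adjusted p under 0.05 by edgeR's quasi-likelihood test on methylated and unmethylated reads and group means at least 2 points apart. The rises were 4 Bcl11b sites, Tcf7 +5534 and Mecom +956, and the falls were Cebpb -488 and 2 Tcf3 sites. By lineage, 1 of 26 stem sites rose and none fell, 1 of 8 myeloid sites fell and none rose, none of 9 erythroid sites changed, and 5 of 52 lymphoid sites rose and 2 fell. At an unadjusted p under 0.05 there were 25 member sites, beside 22.4% of all sites. The median difference over the members was 0.06 points, and over all tested sites -0.01 points. The count of rises went to 2 (both Bcl11b) without AL-young 30, the deepest library, and to 4 without AL-young 15 or AL-old 27. The count of falls went to 9 without AL-old 25, 6 without AL-old 14 and 5 without AL-old 27. The shares over all sites in these fits are not given, so the counts show only how far the calls depend on single mice.

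The promoter of Bcl11b, a factor needed for T cell commitment, gained methylation at all 4 of its measured sites. At Bcl11b +172 the AL-young mice had 0.26, 0.45, 0.57, 0.76 and 0.34%. The AL-old mice ranged from 1.08 to 47.7% with a median of 2.09%, and the CR-old mice had 1.6, 0.64, 0.50, 1.21 and 0.36%. Every AL-old mouse was above every AL-young mouse, the lowest by a narrow margin (1.08 against 0.76%) close to the limit of detection at the median site (0.935%). The level of AL-old rested on AL-old 13 (47.7%, Wilson interval 38.5 to 57.04%), AL-old 27 (34.5%, 27.9 to 41.6%) and AL-old 09 (16.0%). The means were 0.476% ± 0.197 (SD, n = 5) in AL-young, 15.0% ± 18.97 (n = 7) in AL-old and 0.862% ± 0.524 (n = 5) in CR-old mice. The log2 odds ratio of AL-old against AL-young was 4.16 ± 0.93 (SE, edgeR adjusted p = 0.00102), and the call held when any single mouse was left out.

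At Bcl11b -375 the AL-young mice had 2.24, 2.07, 1.72, 1.79 and 0.66%. The AL-old mice ranged from 2.27 to 45.9% with a median of 7.88%, and the CR-old mice had 1.79, 3.05, 4.42, 7.55 and 2.25%. The AL-old mice were again all above the AL-young ones, AL-old 08 by a narrow margin, and CR-old mice overlapped both groups. The means were 1.70% ± 0.616, 13.3% ± 15.4 and 3.81% ± 2.32 in the order young, AL-old, CR-old, and the log2 odds ratio with age was 2.72 ± 0.76 (edgeR adjusted p = 0.0102). At Bcl11b +381 AL-young mice had 0.49 to 1.41%, AL-old mice 0.25 to 49.4% with a median of 4.83%, and CR-old mice 0.24 to 2.49%. Here AL-old 08 was as low as the young mice and AL-old 27 stood far above the rest, and the log2 odds ratio was 2.78 ± 0.82 (edgeR adjusted p = 0.0167). At Bcl11b -252 AL-young mice had 0.19 to 0.86%, AL-old mice 0.37 to 13.8% with a median of 1.35%, and CR-old mice 0.24 to 0.96%, with a log2 odds ratio of 3.35 ± 0.94 (edgeR adjusted p = 0.0112). AL-old 25 overlapped the young mice at this site, and without AL-old 27 the means were less than 2 points apart, so the site was no longer called. The calls at -252 and -375 were also lost without AL-young 30.

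The AL-old mouse with the highest value was not the same at each Bcl11b site. It was AL-old 27 at +381 and -252, AL-old 13 at +172 and AL-old 14 at -375. AL-old 14 had 45.9% at -375 (Wilson interval 40.8 to 51.1%) but 1.35% (0.47 to 3.06%) at -252, 123 bp away. AL-old 13 had 47.7% at +172 but 2.87% (0.64 to 8.09%) at +381. Averaged over the 4 sites, methylation was 0.478 to 1.09% in AL-young, 1.16% (AL-old 08) to 29.2% (AL-old 27) in AL-old and 0.945 to 2.59% in CR-old mice. All 4 sites kept their call among the 11 mice without a high correction, with sex in the fit, with the correction class in the fit and with the correction applied to the counts. Those 11 mice held only AL-old 25 and 27 on the old side, with 4.83 and 49.4% at +381 and 0.37 and 13.8% at -252. The call at -252 among them therefore rested on AL-old 27, since AL-old 25 lay within the young range. Bcl11b +381 was not called by limma (adjusted p = 0.0683), Bcl11b -252 was not called with a minimum of 5 points between means, and none of the 4 was called by edgeR within 1 sex (adjusted p from 0.0502 to 0.632). The other 4 Bcl11b sites were in introns and none changed. The island pair at +22731 and +22903 had AL-old means of 9.11 and 4.52% against 2.44 and 3.22% in AL-young, and the pair at +37448 and +37779 was above 90% in every group mean.

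**Figure D2:**
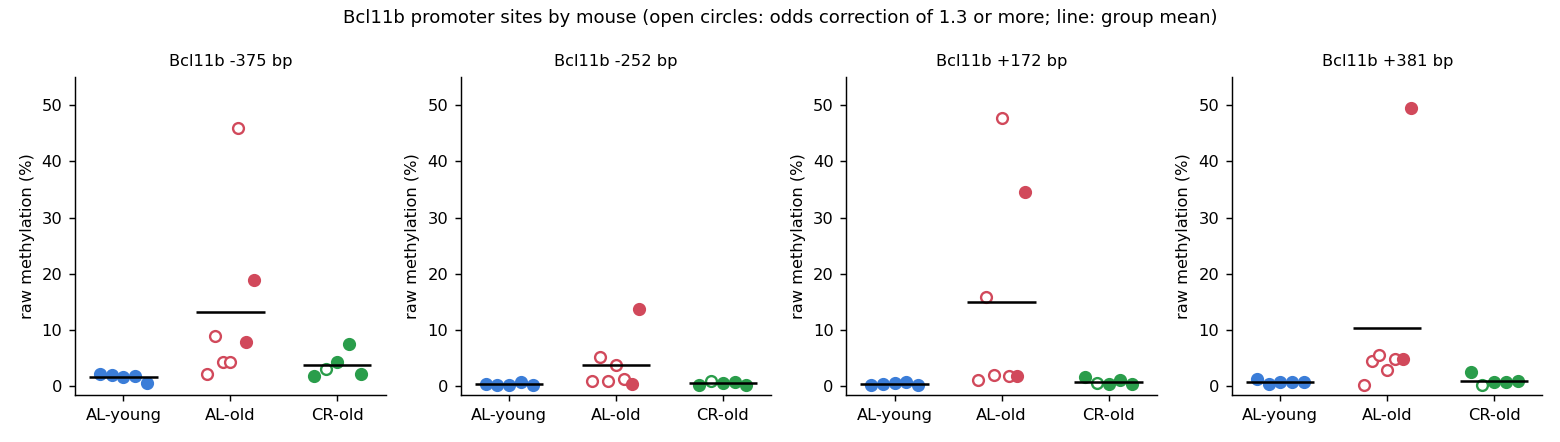
Raw methylation (percent) of each mouse at the 4 Bcl11b promoter sites, by group, with open circles for high-correction mice and lines at group means. AL-young and CR-old mice lie at or below 7.55%, while AL-old mice reach 47.7% at +172, 49.4% at +381, 13.8% at -252 and 45.9% at -375.

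Tcf7, which encodes TCF-1, a factor of early T cells and of naive and memory T cells, rose at an intronic site. The AL-young mice had 44.1, 32.3, 55.6, 48.8 and 40.7% at Tcf7 +5534. The AL-old mice ranged from 49.6 to 96.1% with a median of 71.6%, and the CR-old mice had 44.9, 54.8, 26.95, 25.6 and 24.4%. Of the AL-old mice, AL-old 25 lay within the young range and the other 6 lay above it. The means were 44.3% ± 8.72, 72.6% ± 17.3 and 35.3% ± 13.7, with a log2 odds ratio with age of 2.01 ± 0.69 (edgeR adjusted p = 0.0450). This call was lost in 12 of the 17 fits that left out 1 mouse, with adjusted p up to 0.123, and with sex in the fit (edgeR adjusted p = 0.130). Among low-correction mice the adjusted p by edgeR was 0.557, with 2 AL-old mice at 49.6 and 60.4%. The second Tcf7 site, at +5250, had 59.4, 65.7 and 73.2% in the 3 groups and did not pass (edgeR adjusted p = 0.746).

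Tcf3, which encodes the E proteins E12 and E47 of early B and T cells, fell at 2 intronic sites that were almost fully methylated in young blood. Tcf3 +3541 was chosen by the naming rule and Tcf3 +2617 after its values were seen, as were Bcl11b +381, -252 and -375. At Tcf3 +3541 the AL-young mice had 99, 99.5, 99.5, 99.6 and 99.1%. The 5 AL-old mice with at least 50 reads had 96.0, 99.7, 52.8, 77.6 and 97.6%, and CR-old mice had 98.7, 98.98, 98.0, 98.8 and 98.8%. AL-old 13 (52.8%, 53 reads, Wilson interval 39.7 to 65.6%) and AL-old 14 were far below the rest, and AL-old 10 lay above every young mouse. AL-old 13 and 14 were high-correction mice, and their adjusted values were higher, 81.6 and 82.9%. The only low-correction AL-old mouse with enough reads, AL-old 25, had 97.6% raw. The size of the fall in raw percent thus depends on the correction, whose part in it was not tested further. The reads of AL-old 08 (41) and 27 (39) entered the fit but not the means, 99.3% ± 0.256, 84.7% ± 19.9 (n = 5) and 98.6% ± 0.399. The log2 odds ratio with age was -4.02 ± 1.00 (edgeR adjusted p = 0.00362), and the call held when any single mouse was left out.

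At Tcf3 +2617 the AL-young mice had 98.7 to 99.8%, the AL-old mice 55.7 to 99.6% with a median of 96.0%, and the CR-old mice 97.9 to 99.2%. AL-old 08 (55.7%, 52 reads) was far below the others, AL-old 10 had 81.5%, and AL-old 25 was within the young range. The means were 99.2% ± 0.414, 89.2% ± 16.0 and 98.7% ± 0.572, with a log2 odds ratio of -3.19 ± 0.94 (edgeR adjusted p = 0.0170). The call was lost without AL-old 08, AL-old 10 or AL-young 15. Among low-correction mice the log2 odds ratio was 0.15 (edgeR adjusted p = 1.0), the other direction. The other 4 Tcf3 sites outside islands also had lower AL-old than AL-young means without passing the test, as at +5316 (79.8% ± 2.24, 62.6% ± 10.1 and 78.8% ± 5.95 in the same order of groups, edgeR adjusted p = 0.0663). The 2 Tcf3 sites in the promoter island had group means of 0.100 to 0.190%.

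Among the other lymphoid factors no site passed. Ikzf3 +18454, in the gene of the B cell factor Aiolos, had 50.4% ± 10.9 (n = 5) in AL-young, 80.5% ± 7.72 (n = 3) in AL-old and 72.2% ± 7.90 (n = 5) in CR-old mice. Its AL-old and AL-young mice with enough reads did not overlap, with 72.2% as the lowest old and 67.8% as the highest young value (edgeR adjusted p = 0.0918). Without overlap between AL-old and AL-young there were 3 higher member sites and 1 lower, beside 2.09% and 2.12% of all sites. The lower one was Stat5a +7195, in a signal transducer of cytokine receptors, with 98.2 to 98.8% in AL-young and 88.2 to 97.4% in AL-old mice (edgeR adjusted p = 0.237). Gata3, the factor of helper T cells, had 27.5% ± 4.89, 14.7% ± 9.68 and 25.1% ± 7.38 at -2072 in the order AL-young, AL-old, CR-old (edgeR adjusted p = 0.176). This site lay inside the gene, upstream of an internal transcript start. Ebf1, a factor of early B cells, had 13.7% ± 1.67, 8.26% ± 6.18 and 20.9% ± 7.39 at -1158, also inside the gene (edgeR adjusted p = 0.295).

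Among stem cell factors Mecom +956 rose. Mecom encodes EVI1, a zinc finger factor of stem cell renewal. The AL-young mice had 0.21, 0.61, 0.36, 0.51 and 0.06%. The AL-old mice ranged from 0.40 to 45.8% with a median of 1.58%, and the CR-old mice had 0.55, 0.49, 0.10, 0.21 and 0.69%. AL-old 27 stood alone (45.8%, 380 reads, Wilson interval 40.9 to 50.8%), the next mouse had 1.97%, and AL-old 08 and 25 overlapped the young mice. The means were 0.350% ± 0.222, 7.52% ± 16.9 and 0.408% ± 0.245, with a log2 odds ratio of 3.07 ± 0.97 (edgeR adjusted p = 0.0270). The call was lost without AL-old 27, AL-young 15 or AL-young 30, with adjusted p up to 0.117. The neighbouring island site Mecom +1066 had 0.688, 2.63 and 0.470% and did not pass (edgeR adjusted p = 0.145).

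Other stem factors differed in AL-old mice mainly by their spread. At Erg +2621, in an ETS factor of stem cells, the AL-young mice had 91.7 to 94.0%, the AL-old mice 32.1 to 92.5% with a median of 79.4%, and the CR-old mice 73.0 to 85.7%. The lowest AL-old values were in AL-old 08 and 13 (edgeR adjusted p = 0.0601). Meis1 +3923, in a homeobox cofactor, had 9.80% ± 3.89, 31.5% ± 25.0 (n = 3) and 10.1% ± 6.29 (edgeR adjusted p = 0.160). The island of Gata2, a zinc finger factor of stem and progenitor cells, had AL-young and AL-old means of 0.444 and 1.64% at +154, 0.210 and 0.350% at +405, 0.562 and 3.61% at +739 and 1.48 and 7.71% at +1165. None passed (lowest edgeR adjusted p = 0.120), and CR-old means were 0.356 to 1.396%. Gata2 +2017 in the coding sequence had 49.4% ± 4.15, 38.0% ± 30.9 and 29.6% ± 8.34, with AL-old mice from 4.55 to 78.3%, so single old mice lay both below and above all young ones.

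Among the myeloid factors, Cebpb, which encodes C/EBPβ of monocytes and activated granulocytes, fell at its distal promoter site. At Cebpb -488 the AL-young mice had 5.71, 8.21, 6.60, 5.68 and 6.35%. The AL-old mice ranged from 0.20 to 10.9% with a median of 0.66%, and the CR-old mice had 5.34, 0.93, 4.17, 1.98 and 1.74%. 6 of the AL-old mice were below every young mouse and AL-old 25 (10.9%, Wilson interval 6.67 to 16.6%) was above them all. The means were 6.51% ± 1.03, 2.02% ± 3.94 and 2.83% ± 1.85, with a log2 odds ratio of -3.16 ± 0.82 (edgeR adjusted p = 0.00527), and the call held when any single mouse was left out. The 5 high-correction AL-old mice had 0.20 to 0.73%, and CR-old 06 was the lowest of its group. Among low-correction mice, with AL-old 25 and 27 alone on the old side, the log2 odds ratio was -0.35 (edgeR adjusted p = 0.851). The part of the correction in this fall was not tested further. Cebpb -362 had 5.86, 2.83 and 6.07% (edgeR adjusted p = 0.0999), Cebpb -138 had means of 0.141 to 0.188%, and the 5 sites of Cebpa, the main factor of granulocyte commitment, had means of 0.202 to 2.10% in all groups with no call.

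None of the 9 erythroid sites changed with age. All lay in CpG islands with means below 5%. The AL-old mean was lower than the AL-young mean at 8 of the 9 and higher at 1, while it was higher at 46.8% of all sites. At 7 of the 9 all group means were under 1%, so nothing is read from this direction. Cbfa2t3 encodes ETO2, a corepressor of erythroid genes. Cbfa2t3 +278 had 2.91, 1.88, 2.11, 4.43 and 1.78% in AL-young mice, 0.14 to 2.18% with a median of 0.36% in AL-old mice, and 4.49, 1.57, 4.37, 3.41 and 2.08% in CR-old mice. AL-old 25 (2.18%) overlapped both other groups, and the other 6 AL-old mice were below every AL-young and CR-old mouse. With age its log2 odds ratio was -2.31 ± 0.78 (edgeR adjusted p = 0.0405), but the means, 2.62% ± 1.10 and 0.730% ± 0.774, were 1.89 points apart, so it did not count as changed. Klf1, the factor of globin genes, had 0.146 to 0.444% at its 2 sites over all groups. Nfe2, the globin enhancer factor, had an AL-old mean of 1.46% ± 2.19 at -78, inside the gene, against 0.266% in AL-young mice (edgeR adjusted p = 0.293).

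**Figure D3:**
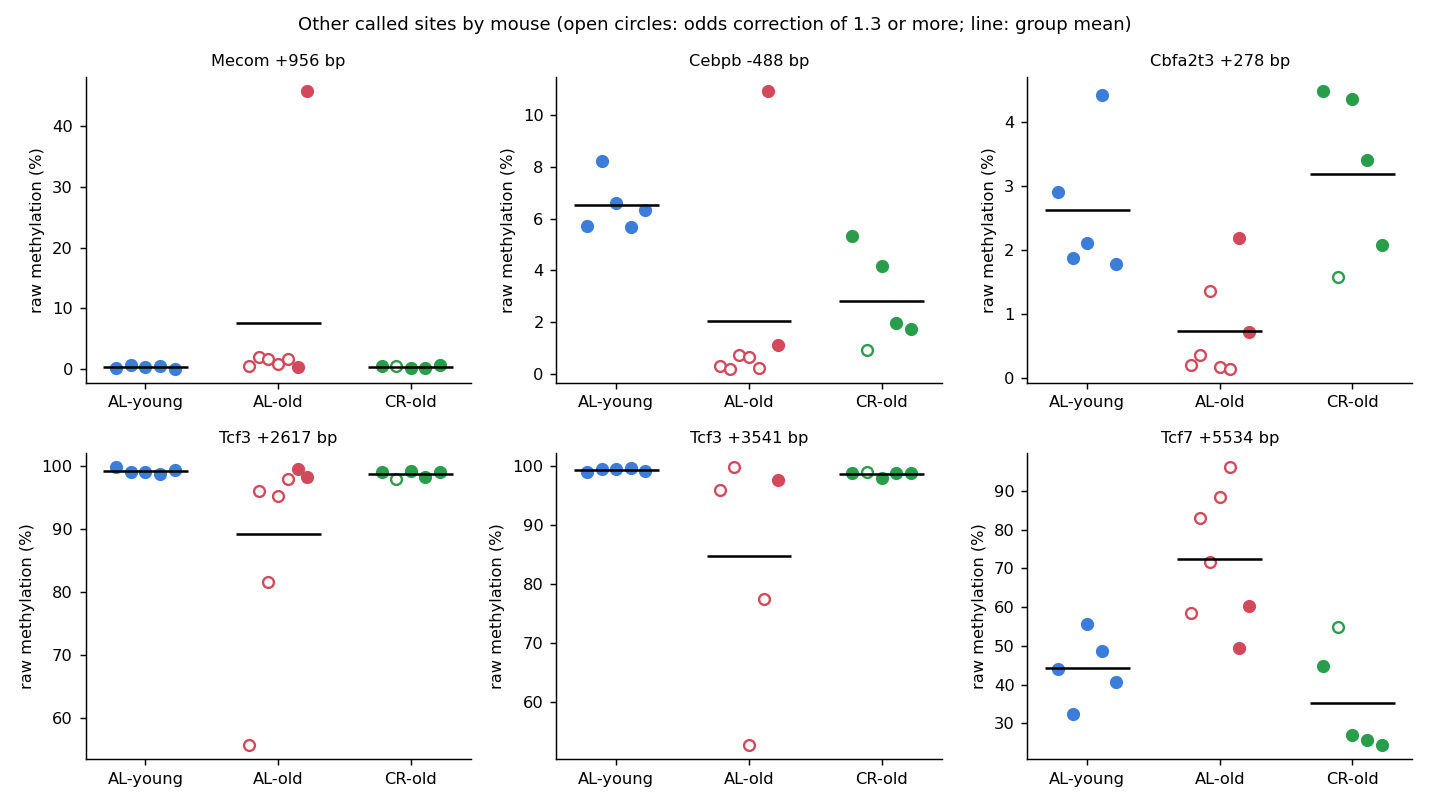
Raw methylation (percent) of each mouse at the 6 other sites called with age or diet, by group, with open circles for high-correction mice and lines at group means. Values of AL-old mice spread from 49.6 to 96.1% at Tcf7 +5534 and from 0.20 to 10.9% at Cebpb -488, wider than in AL-young mice.

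The second comparison set caloric restriction against ad libitum food at old age, and 1 of the 95 sites (1.05%) rose and 2 (2.11%) fell in CR-old against AL-old, beside 1.58% and 1.76% of all tested sites (3.34% in either direction). The rise was Cbfa2t3 +278, with means of 3.18% ± 1.32 in CR-old and 0.730% ± 0.774 in AL-old (log2 odds ratio 2.58 ± 0.78, edgeR adjusted p = 0.0451). The falls were Tcf7 +5534, 35.3% ± 13.7 against 72.6% ± 17.3 (-2.60 ± 0.70, edgeR adjusted p = 0.0220), and Bcl11b +172, 0.862% ± 0.524 against 15.0% ± 18.97 (-3.27 ± 0.90, edgeR adjusted p = 0.0265). The ranges of both old groups overlapped at all 3 sites. The Cbfa2t3 call was lost in 9 of 17 fits without 1 mouse and without the high-correction mice (edgeR adjusted p = 0.276). The Tcf7 call was lost without AL-old 14, CR-old 19, 20 or 22 (adjusted p up to 0.0932), among low-correction mice (log2 odds ratio -1.52, edgeR adjusted p = 0.115) and with the correction class in the fit (edgeR adjusted p = 0.183). High-correction AL-old mice had 58.6 to 96.1% at Tcf7 +5534, and the other 2 AL-old mice 49.6 and 60.4%. The part of the correction in this difference was not tested further. The Bcl11b +172 call was lost without AL-old 09 or 13 or CR-old 19, 20 or 22 (edgeR adjusted p up to 0.0867) and by limma. It held with sex or the correction class in the fit, with the correction applied to the counts and among low-correction mice, where AL-old 25 and 27 were the only AL-old mice. The count of falls went to 0 without CR-old 19, 20 or 22, to 1 without AL-old 09 or 14 and to 4 without AL-old 25, and that of rises to 6 without AL-old 25. These counts too stand without the shares over all sites in the same fits and describe only the dependence on single mice. At an unadjusted p under 0.05 there were 19 member sites, beside 15.8% of all sites, and the median difference was -0.02 points over the members and -0.03 over all sites.

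The other Bcl11b promoter sites had lower CR-old than AL-old means without passing in the fit of all mice without covariate. There the edgeR adjusted p was 0.0509 at +381, 0.113 at -252 and 0.325 at -375. Bcl11b +381 was called lower in CR-old with sex or the correction class in the fit and among low-correction mice (AL-old 25 and 27 only), but not by limma. With the correction applied to the counts, +381, -252 and -375 were all called lower. Tcf3 +3541 had an adjusted p of 0.0554 by edgeR with CR-old higher. Tcf3 +5403, a site in the 3' part of the gene, was the member at which CR-old mice lay above all AL-old mice with enough reads, 93.7 to 97.5% against 82.6 to 92.7%, beside 0.254% of all sites (edgeR adjusted p = 0.188). No member site was lower without overlap, beside 0.863% of all sites.

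CR-old and AL-young mice differ in both age and diet, and no member site passed the test between them. By edgeR 0 sites rose and 0 fell, beside 0.0% of all 18884 sites, and limma also called none. Both fits estimate the spread over all 3 groups, AL-old included. The median SD over all sites was 1.24 points in AL-old, 0.404 in AL-young and 0.568 in CR-old. The lack of calls therefore does not show equal methylation. At an unadjusted p under 0.05 there were 3 member sites, beside 6.83% of all sites, and the lowest adjusted p at the 10 sites above was 0.697 at Cebpb -488 (log2 odds ratio -1.504). CR-old mice lay below all AL-young mice without overlap at 4 member sites, Gata2 +2017, Erg +2621, Cebpb -488 and Tcf3 +3541, beside 6.78% of all sites, and above them at none, beside 1.09%. At Erg +2621 the values were 73.0 to 85.7% in CR-old against 91.7 to 94.0% in AL-young. With only these 2 groups in the fit, Ikzf3 +18454 was called higher (0.842% of all sites) and Gata2 +2017, Erg +2621 and Cebpb -488 lower (6.31% of all sites). The CR-old mean was nearer to the AL-young than to the AL-old mean at 67 member sites (70.5%), beside 61.7% of all sites, and at 8 of the 9 sites changed with age. Those 9 sites were selected for a difference of AL-old from AL-young, which by itself favours this outcome. The matching share over all sites changed with age is not given, so nothing is read from the 8. AL-old samples serve both comparisons, so a high AL-old value enters both differences.

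By the median SD over sites, AL-old mice varied more than the other groups in the stem, myeloid and lymphoid lists, and less in the erythroid list. The SD of AL-old exceeded that of AL-young at 76 member sites (80.0%), beside 75.1% of all sites, and that of CR-old at 72 (75.8%), beside 72.9%. The median SD over the members was 0.342 points in AL-young, 1.54 in AL-old and 0.426 in CR-old, and over all sites 0.404, 1.24 and 0.568. An SD over 10 points occurred at 24 member sites in AL-old (25.3%, all sites 24.2%) at 1 in AL-young (1.05%, all sites 0.164%) and at 1 in CR-old (1.05%, all sites 4.85%). Of the 24, 11 were in stem and 13 in lymphoid factors. In the order AL-young, AL-old, CR-old the median SD was 0.377, 4.06 and 0.398 points over stem sites and 0.370, 2.79 and 0.661 over lymphoid sites. It was 0.191, 0.677 and 0.414 over myeloid sites and 0.264, 0.0892 and 0.121 over erythroid sites. The lists differ in level, with all 9 erythroid sites under 5% in AL-young and no myeloid group mean above 6.51%. The myeloid and erythroid medians were all below 0.935, the limit of detection in percent at the median site. The largest erythroid SD, 2.19 points, was in AL-old. Whether spread differs by lineage apart from level was not tested. The AL-old group was the larger one and held 5 of the 6 high-correction mice, whose part in the spread was not tested.

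**Figure D4:**
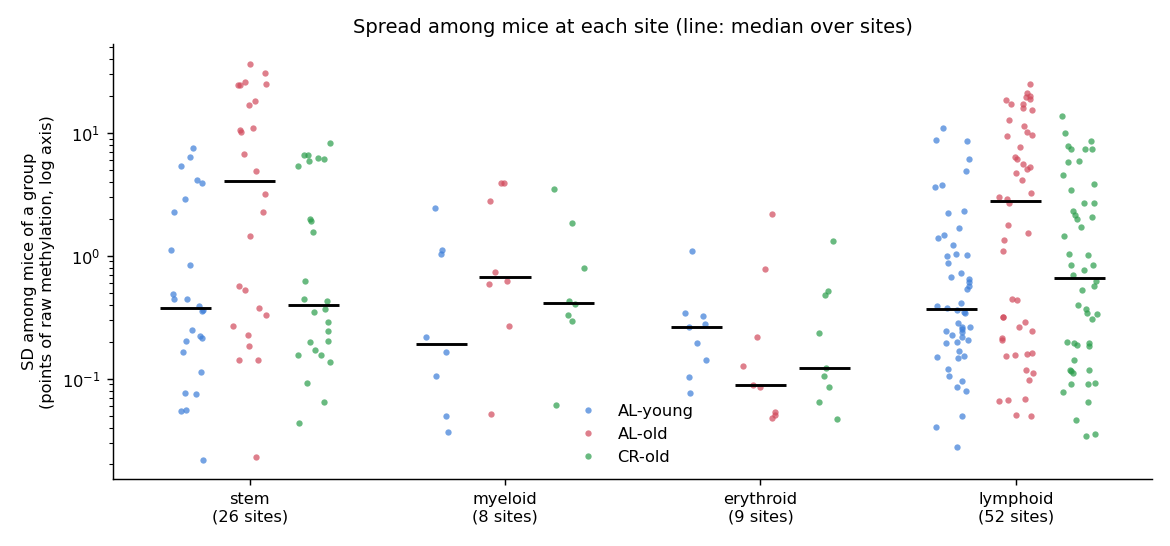
Standard deviation of raw methylation between mice (points, log axis) at each member site, by lineage list and group, with a black line at the median over sites. AL-old SDs pass 10 points at 11 stem and 13 lymphoid sites and at no myeloid or erythroid site, where no group mean was above 6.51%.

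The calls were counted by starting level and by island. Since a call needs means 2 points apart and 59 of the 95 sites had an AL-young mean under 2%, most low sites had no room for a called fall, and nothing is read from their direction. Of 64 member sites under 5% in AL-young mice, 5 rose and none fell with age, beside 683 and 26 of 11931 tested sites of that level. Of 19 sites at 5 to 90%, 1 rose and 1 fell, beside 55 and 598 of 3284. Of 12 sites over 90%, none rose and 2 fell, beside 7 and 509 of 3669. In CpG islands 5 of 64 sites rose and none fell, beside 5.31% and 1.28% of all 12585 tested island sites. Outside islands 1 of 31 rose and 3 fell, beside 1.22% and 15.4% of 6299 sites.

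The order of mice was compared between sites as a description only, since all sites share libraries, depth and correction. By Spearman's rho over 17 mice the site of another gene most like Cebpb -488 was Tcf3 +2617 (0.84). Both lay below the AL-young range in every AL-old mouse except AL-old 25, and in CR-old 06 and CR-old 20. Bcl11b +381 was most like Gata2 +154 (0.89), as was Mecom +956 (0.76). Tcf3 +3541 was most like Stat5a +7364 (0.89 over 15 mice with enough reads).

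The calls depended on how the correction was treated. With the correction factors as offsets on the counts, 11 member sites rose with age (7.62% of all sites), adding Gata2 +154 and +739, Mecom +1066, Meis1 +3923 and Ikzf3 +18454, and 2 fell (3.31% of all sites), Cebpb -488 and Tcf3 +3541. Over all sites the offsets gave 1439 rises and 626 falls, against 745 and 1133 without them. By the age rule of the study's methods, a Spearman correlation of adjusted methylation with age over the 12 AL mice, 16 member sites gained (all sites 11.6%) and 5 lost methylation (all sites 5.9%). The 16 included the 4 Bcl11b promoter sites, Tcf7 +5534, 2 Mecom and 3 Gata2 island sites, and the 5 did not include Cebpb -488. Among the 11 low-correction mice 9 of the 91 member sites in the fit rose, beside 8.75% of all sites, and 1 fell, beside 1.7%. The rises included the 4 Bcl11b promoter sites and Mecom +956, and the fall was Pax5 +122582. Only AL-old 25 and 27 stood on the old side of this fit, with 0.40 and 45.8% at Mecom +956, so that rise rested on AL-old 27.

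**Figure D5:**
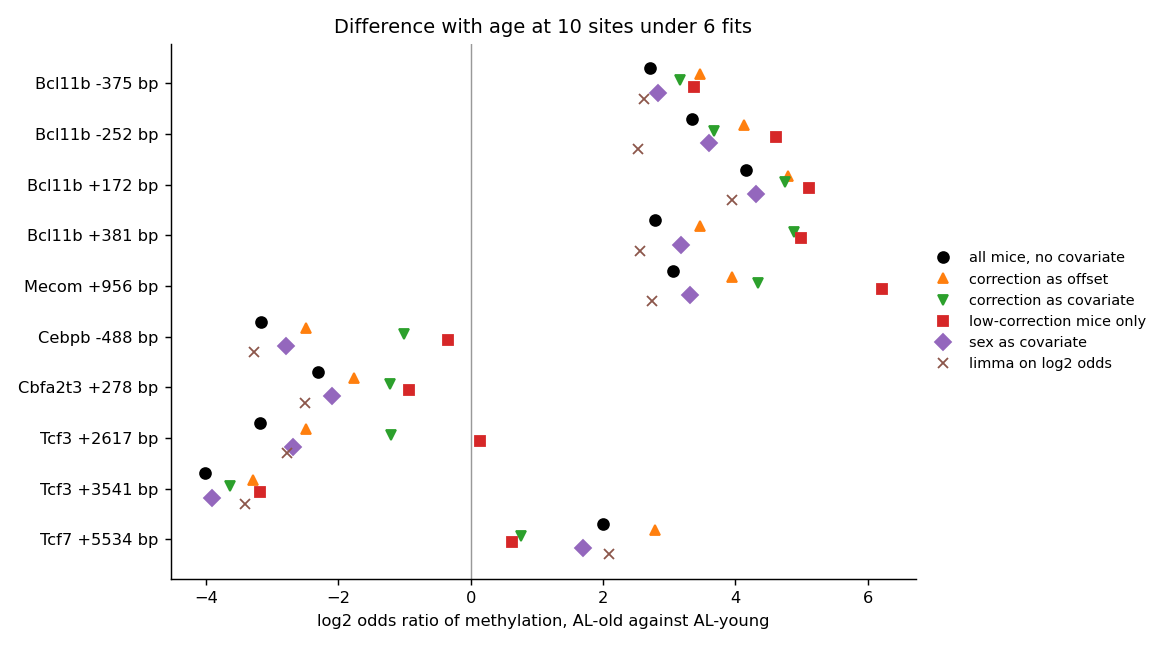
Log2 odds ratio of AL-old against AL-young (x axis) at the 10 sites, with a symbol for each of 6 fits: all mice without covariate, correction as offset, correction as covariate, low-correction mice, sex as covariate, and limma. The 4 Bcl11b sites and Mecom +956 lie above 0 in each fit, and Tcf3 +2617 crosses 0 to 0.15 among low-correction mice.

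Other haematopoietic factors, from a list of 45 genes outside the 43, had 110 measured sites in 30 genes, of which 10 rose and 5 fell with age. The rises were 5 sites of Satb1, a chromatin organiser of T cells, and 1 each in Runx1, Runx3, Hoxa9, Tox and Nfatc2, and the falls were 2 each in Zfpm1 and Zbtb32 and 1 in Junb. Runx1, a core factor of stem cells, had 4.31% ± 0.642 in AL-young, 42.4% ± 23.8 in AL-old and 10.9% ± 5.12 in CR-old mice at an intronic site (log2 odds ratio with age 3.97 ± 0.73, edgeR adjusted p = 7.2e-05). CR-old was lower than AL-old there (edgeR adjusted p = 0.0245). In CR-old against AL-old 3 of the 110 sites rose and 7 fell. The backgrounds are those given above for all 18884 sites.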

How the data were processed

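DREAM libraries of whole blood were cut by SmaI, which methylation blocks, and then by XmaI at the same CCCGGG. The authors mapped the reads to mm9 and deposited counts of methylated, unmethylated and all reads per site. The deposited tables also hold raw and adjusted methylation in percent, and the authors took the adjustment from spiked standards. The submitters' processing notes name Bowtie2, SAMtools, mm9 and mm10, without versions or roles. Raw percent is (methylated + 0.5) over (total + 1), so a site without methylated reads is not at 0, and high correction factors (1.3 or more) move values most at intermediate methylation. All 173449 site positions lay on a CCCGGG of mm9.

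Sites with 50 reads in 13 of 17 mice were kept (18884). Groups came from the labels. Replicates are separate mice. Counts were tested with edgeR 4.0.16 (quasi-likelihood; R 4.3.3), fitting each mouse's coverage, 3 groups, 1 dispersion (0.289) and Benjamini-Hochberg adjustment over all 18884 sites; a call also needed raw group means 2 points apart. In all 31 alternative settings were run, with limma 3.58.1 and the leaving out of each of 17 mice among them. Tables were made with pandas 2.3.3 and numpy 2.4.6, intervals with scipy 1.17.1 and plots with matplotlib 3.10.9, under Python 3.11.15. CpG islands were windows of 200 bp with at least 50% GC and a ratio of observed to expected CpG of 0.6, and promoters spanned 1000 bp upstream and 500 bp downstream of any start. Spi1 is annotated as Sfpi1. Sites named with every mouse were, per lineage, the called sites with the largest difference with age (up to 4 higher and 3 lower, at most 1 per gene and direction), the same over all members for the other comparisons (up to 4 each way), and, in a lineage without a call, the site with the largest difference. Other calls and uncalled sites were named after their values were seen. Members, lists and tests were chosen with earlier results of these data known. The tests were checked on simulated data. No label gives the instrument, centre, adapter type or date of a mouse.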

Additional observations from a re-analysis of the deposited data

Results flagged for a closer look

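Within groups of 5 or 7 mice, the highest or lowest mouse was set against the others by Dixon's gap test at the 10 sites of the report. Of 30 groups tested, 7 held a mouse that the test set apart. Chance marks about 1 in 20 groups, but that rate does not hold here. The sites were chosen for their calls, which such mice helped to make, and 4 of them lie in 1 promoter, so the count is a description. AL-old 27 stood apart at 3 sites. It had 49.4% at Bcl11b +381, where the other AL-old mice had 0.25 to 5.53%, 13.8% at Bcl11b -252 (others 0.37 to 5.22%) and 45.8% at Mecom +956 (others 0.40 to 1.97%). AL-old 14 had 45.9% at Bcl11b -375 (others 2.27 to 18.97%). AL-old 25 had 10.9% at Cebpb -488 (others 0.20 to 1.13%). AL-old 08 had 55.7% at Tcf3 +2617 (others 81.5 to 99.6%). CR-old 19 had 98.0% at Tcf3 +3541 (others 98.7 to 98.98%). This gap lay within counting error, with 119 of 121 reads methylated in CR-old 19 and 120 of 121 in CR-old 22. No AL-young mouse stood apart.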

How the results depend on the processing

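No paired analysis was possible because the mouse numbers in the labels are not shared between groups. For AL-old against AL-young, the 6 member sites that rose became 11 with the correction as an offset, 3 with limma, 0 among females, 0 among males, 16 under the study's Spearman age rule, and 2 to 6 without 1 mouse. The 3 that fell became 0 at 200 reads, 1 with the correction class in the fit, 1 among low-correction mice, 0 among females, 0 among males, 5 under the age rule and 2 to 9 without 1 mouse. The 5 under the age rule held none of these 3. For CR-old against AL-old, the 1 rise became 0 with a 5-point minimum, with only the compared groups, with the correction class, with the offset, among females, among males, among low-correction mice and with sex, and 0 to 6 without 1 mouse. The 2 falls became 1 with only the compared groups, 8 with the offset, 1 with limma, 5 among low-correction mice, 0 among females, 0 among males and 0 to 4 without 1 mouse. For CR-old against AL-young, with 0 calls, only the compared groups gave 1 rise and 3 falls and low-correction mice gave 1 fall. Where no share over all sites was given above for a setting, its count has no background and describes only how stable the calls were. Tcf3 +2617 reversed with age among low-correction mice (log2 odds ratio 0.15) and among males (0.46). Over all sites with age, the correction class in the fit gave 930 rises and 221 falls and low-correction mice gave 1652 and 321, against 745 and 1133. The cause of these shifts was not tested. Fits within 1 sex hold 2 AL-old males or 2 AL-young females, and fits of low-correction mice hold 2 AL-old mice. Sites near 0% rest on a few reads.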
